A study of Mus musculus with 15 samples.

Results

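The transcripts examined are those of the 4 adult haemoglobin genes of the mouse and of Alas2, the erythroid enzyme that opens haem synthesis. The 5 genes were taken by name (Hba-a1, Hba-a2, Hbb-bs, Hbb-bt and Alas2) from the 55335 genes measured in colon tissue of 15 mice, 1 library per mouse. The mice fell into 3 groups of 5. Every group received DSS (dextran sulfate sodium, a detergent given to mice to injure the colon lining and cause colitis). The first group received DSS alone and is called DSS. The second, DSS+ICB, also received ICB, which stands for immune checkpoint blockade, antibodies that release the brakes on T cells. The third, called DSS+ICB+Fp, received both and a gavage of the gut bacterium F. prausnitzii. The labels state no strain, age, sex, antibody, dose, time or cage, and they list no group without DSS, with a control antibody or with a control gavage. Mice are numbered within a group only to name them.

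Adult haemoglobin is a tetramer that pairs alpha chains with beta chains, each carrying a haem group that binds oxygen. Hba-a1 and Hba-a2 encode the alpha chain and Hbb-bs and Hbb-bt the beta chain. Alas2 joins glycine and succinyl-CoA in the mitochondrion of developing red cells, and Alas1 does the same in other tissues. Mouse red cells lose their nucleus before they circulate, and the youngest of them, the reticulocytes, still hold globin RNA. In bulk tissue, fewer cells of a type and less RNA per cell cannot be told apart.

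In build GRCm38 the alpha genes lie on the plus strand of chromosome 11, Hba-a1 at chr11:32283511-32284465 and Hba-a2 at chr11:32296489-32297298. The beta genes lie on the minus strand of chromosome 7, Hbb-bs at chr7:103826534-103828096 and Hbb-bt at chr7:103812524-103813996. Each of the 4 has 3 exons. Alas2, with 11 exons, lies on the plus strand of the X chromosome at chrX:150547375-150570638. The coding sequences of Hba-a1 and Hba-a2 differed at 1 of 426 bases and those of Hbb-bs and Hbb-bt at 1 of 441, with 0 differences in the encoded residues of either pair. Reads from such copies cannot be told apart over most of their coding length, so the split within each pair is uncertain, and the sums over each pair rest on fewer assumptions.

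The promoters are shown because the 5 genes, on 3 chromosomes, varied together from mouse to mouse. Each sequence is the 250 bases before the RefSeq start of the gene, in build GRCm38.p6 and 5′ to 3′ on the gene's own strand; RefSeq's starts differ from the gene positions given above, which are those of the GENCODE gene models. Capitals mark GATAA (letters that GATA factors bind), CACCC (bound by Krüppel-like factors), CCAAT and TATAA (the TATA box), searched on both strands.
Hba-a1: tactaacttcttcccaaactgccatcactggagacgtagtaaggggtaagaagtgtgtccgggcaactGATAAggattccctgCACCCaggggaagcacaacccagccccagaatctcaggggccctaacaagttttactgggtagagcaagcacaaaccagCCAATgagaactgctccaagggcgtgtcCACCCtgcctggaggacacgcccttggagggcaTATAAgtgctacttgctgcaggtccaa
Hbb-bs: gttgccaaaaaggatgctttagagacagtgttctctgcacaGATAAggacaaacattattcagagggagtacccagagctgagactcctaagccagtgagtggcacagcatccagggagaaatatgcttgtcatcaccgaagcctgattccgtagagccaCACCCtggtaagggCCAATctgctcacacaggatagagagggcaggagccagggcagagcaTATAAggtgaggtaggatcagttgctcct
Hbb-bt: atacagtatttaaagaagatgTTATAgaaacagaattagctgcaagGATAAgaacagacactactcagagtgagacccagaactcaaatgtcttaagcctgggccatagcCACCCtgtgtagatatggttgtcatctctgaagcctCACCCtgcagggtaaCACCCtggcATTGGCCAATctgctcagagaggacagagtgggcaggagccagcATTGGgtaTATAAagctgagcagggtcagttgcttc
Alas2: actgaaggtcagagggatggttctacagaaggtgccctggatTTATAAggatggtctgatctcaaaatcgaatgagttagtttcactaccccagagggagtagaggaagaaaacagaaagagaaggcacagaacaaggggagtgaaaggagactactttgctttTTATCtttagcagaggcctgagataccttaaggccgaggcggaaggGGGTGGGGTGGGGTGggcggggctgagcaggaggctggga
These windows lie at chr11:32283422-32283671, chr7:103827929-103828178, chr7:103813924-103814173 and chrX:150547167-150547416. The Hba-a2 window, at chr11:32296242-32296491, matched that of Hba-a1 at all 247 aligned bases. The Hbb-bs and Hbb-bt windows were identical at 77.4% of 239 aligned bases. GATAA and CACCC were present in all 5 windows, against 10.1% of 32851 RefSeq promoters of the same length that held both. All 4 motifs were present in the 4 globin windows and in 0.968% of all promoters. In Alas2, GATAA and CACCC were found on the opposite strand, as TTATC and GGGTG, and CCAAT was not among its letters. Hba-a1 had its TATAA from base 27 before the start, its CCAAT from base 88 and its GATAA from base 182. A match of letters is a description and shows no binding.

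Libraries held 341054 to 443338 FPKM in total (fragments counted on a gene, scaled to the length of its transcript and to the fragments mapped in the library), with 13243 to 14336 genes at 1 FPKM or more. The spacing of the lowest values gave an estimated depth of 15450000 to 25050000 fragments. Mouse 3 and mouse 5 of DSS+ICB stood apart, with median rank correlations with the other libraries of 0.725 and 0.864, against at least 0.922 elsewhere. Mouse 3 also had the largest mitochondrially encoded share, 33.2% of FPKM, against 9.39% to 25.8% in the other libraries. The log2 differences of the 5 genes, and many of the other values, are also given without both. Of all pairs of libraries 0 held identical values. Nothing says whether mice were housed or processed together. The p-values treat the libraries as independent and take no account of any shared cage or batch.

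Hbb-bs, the beta chain gene with the highest level of the 5, had 23.2, 42.8, 63.1, 115 and 20.9 FPKM in DSS mice 1 to 5. In DSS+ICB mice 1 to 5 it had 43.7, 73.5, 191, 325 and 386 FPKM, and in DSS+ICB+Fp mice 1 to 5 it had 10.2, 80.8, 23.9, 22.5 and 47.4 FPKM. Mice 3, 4 and 5 of DSS+ICB were above every other mouse, while mice 1 and 2 of that group lay within the range of DSS. The means were 52.9 ± 38.5, 204 ± 151 and 37.0 ± 27.9 FPKM (SD, n = 5 each).

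Hba-a1, one of the alpha chain genes, had 21.9, 23.3, 47.8, 91.7 and 13.7 FPKM in DSS mice 1 to 5. It had 34.0, 57.0, 159, 239 and 295 FPKM in DSS+ICB and 5.73, 63.7, 18.4, 21.5 and 37.5 FPKM in DSS+ICB+Fp. The same 3 DSS+ICB mice were highest, and the groups overlapped. Its copy Hba-a2 had 23.1, 23.9, 43.1, 91.0 and 14.2 FPKM in DSS, 35.1, 56.1, 152, 229 and 293 FPKM in DSS+ICB, and 6.91, 60.6, 16.6, 19.6 and 34.7 FPKM in DSS+ICB+Fp. The group means were 39.7 ± 31.7, 157 ± 113 and 29.4 ± 22.3 FPKM for Hba-a1 (SD, n = 5 each). They were 39.0 ± 30.9, 153 ± 110 and 27.7 ± 20.9 FPKM for Hba-a2 (SD, n = 5 each). Within every group the SD was at least 71.9% of the mean for each alpha gene.

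Hbb-bt, the other beta chain gene, had 10.2, 17.4, 28.4, 52.7 and 7.55 FPKM in DSS mice 1 to 5. It had 19.4, 29.9, 83.2, 151 and 172 FPKM in DSS+ICB and 3.43, 38.0, 9.53, 10.9 and 20.4 FPKM in DSS+ICB+Fp. It was the lowest of the 4 globin genes in all 15 libraries, with means of 23.3 ± 18.3, 90.9 ± 68.9 and 16.5 ± 13.5 FPKM (SD, n = 5 each).

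Alas2, the haem enzyme of red cell precursors, had 0.222, 0.216, 0.603, 1.46 and 0.0901 FPKM in DSS mice 1 to 5. It had 0.685, 0.476, 2.52, 2.65 and 5.91 FPKM in DSS+ICB and 0.0959, 1.34, 0.444, 0.157 and 0.506 FPKM in DSS+ICB+Fp. Only 5 libraries reached 1 FPKM: mouse 4 of DSS, mice 3, 4 and 5 of DSS+ICB and mouse 2 of DSS+ICB+Fp. It passed the filter on low values, at least 1 FPKM in at least 5 libraries, through these alone, and 3 of them are from the group where it was high. The means were 0.519 ± 0.561, 2.45 ± 2.18 and 0.508 ± 0.496 FPKM (SD, n = 5 each). From the estimated depth and a transcript of 2037 bases, these values stand for about 3 to 238 fragments per library, against 126 to 5120 for Hbb-bs. The relative counting error of Alas2 is therefore larger than that of Hbb-bs.

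**Figure D1:**
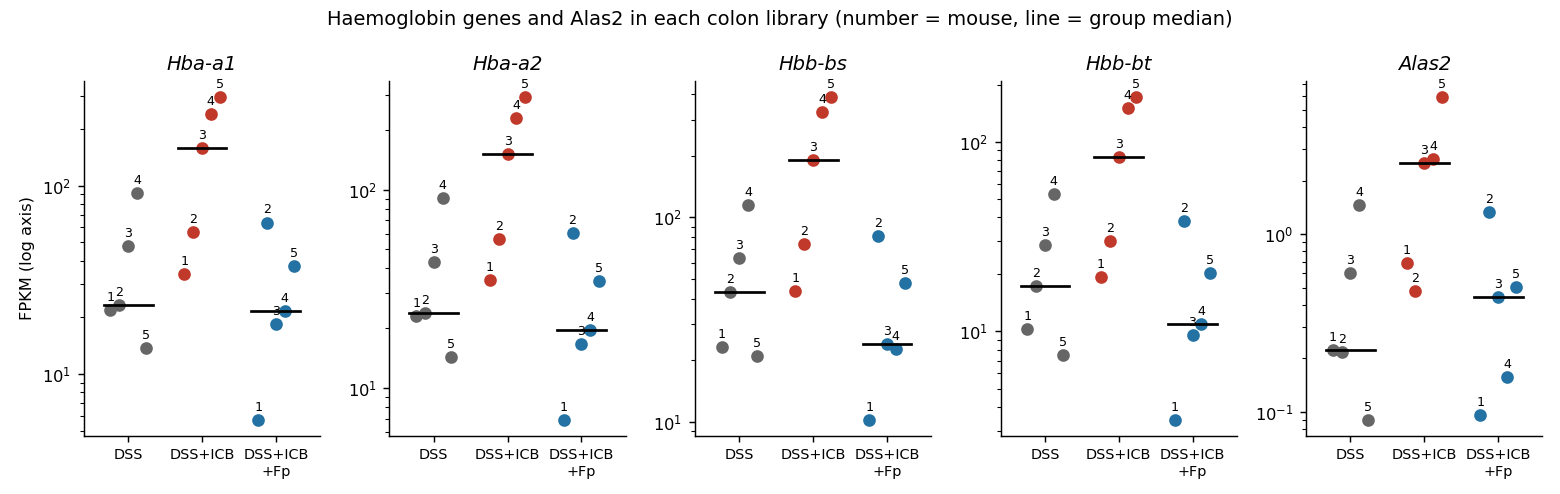
FPKM of each of the 5 genes in each colon library, on log axes that differ between panels, by group; points are mice with their number and black lines are group medians. Mice 3, 4 and 5 of DSS+ICB are the 3 highest in every panel, with Hbb-bs at 191 to 386 FPKM, and mice 1 and 2 of that group lie among the DSS mice.

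The order of levels was the same in all 15 libraries at its ends: Hbb-bs was the highest of the 5, Hbb-bt the lowest globin gene and Alas2 the lowest of the 5. Hba-a1 and Hba-a2 were neighbours that could not be ordered, with Hba-a2 above Hba-a1 in 5 of 15 libraries. The 4 globin genes together took 0.00708% of total FPKM in the lowest library, mouse 1 of DSS+ICB+Fp, and 0.336% in the highest, mouse 5 of DSS+ICB. Among all genes of its library, Hbb-bs ranked from 4422 in the former to 81 in the latter. Globin transcripts were thus a small share of every library, with a wide range between mice of 1 group.

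Adding checkpoint blockade to DSS asks whether haemoglobin RNA in the injured colon differs with the treatment. All 5 genes were higher on average in DSS+ICB than in DSS, but none passed the test. The log2 differences in limma, on log2(FPKM + 1), were 1.86 ± 0.69 (SE) for Hba-a1, 1.83 ± 0.66 for Hba-a2, 1.77 ± 0.66 for Hbb-bs, 1.79 ± 0.69 for Hbb-bt and 1.02 ± 0.37 for Alas2. The adjusted p values of limma, by Benjamini-Hochberg over 14385 genes, were 0.427 for Hba-a2 and 0.430 for the other 4. At an adjusted p under 0.05, 0 of 5 passed, where 0.0209% of all genes did. At an unadjusted p under 0.05, all 5 were called, where 11.3% of all genes were. The 5 genes varied together from mouse to mouse, so they do not count as 5 separate results. In 0 of 5 did every DSS+ICB mouse exceed every DSS mouse, where 1.54% of all genes had groups that did not overlap. The median log2 difference of the 5 was 1.79, beside 0.02 over all genes tested. As a description, 0.229% to 0.341% of genes tested had a larger absolute difference than the 4 globin genes, and 2.38% had one larger than Alas2. Without mice 3 and 5 of DSS+ICB the log2 differences were 1.21 to 1.27 for the globin genes and 0.53 for Alas2, and 0 of 5 had an unadjusted p under 0.05. The size for Alas2 depends on the value added before the logarithm: with 0.1 in place of 1 it was 1.97, and with 10 it was 0.23. With 0.1 added the globin genes were at 1.80 to 1.89, below Alas2.

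Adding the F. prausnitzii gavage to DSS and ICB asks whether that level differs with the bacterium. All 5 genes were lower on average in DSS+ICB+Fp than in DSS+ICB, and none passed with all 15 libraries. The log2 differences were -2.32 ± 0.69 for Hba-a1, -2.34 ± 0.66 for Hba-a2, -2.32 ± 0.66 for Hbb-bs, -2.31 ± 0.69 for Hbb-bt and -1.02 ± 0.37 for Alas2. The adjusted p values in limma ran from 0.0938 for Hba-a2 to 0.148 for Alas2. At an adjusted p under 0.05, 0 of 5 passed, where 0.132% of all genes did. At an unadjusted p under 0.05, 5 of 5 were called, where 21.8% of all genes were. Here too the 5 genes varied together and are not 5 separate results. Groups did not overlap in 0 of 5, where 3.41% of all genes had groups that did not. Mouse 2 of DSS+ICB+Fp, at 80.8 FPKM of Hbb-bs, lay above mice 1 and 2 of DSS+ICB. The median log2 difference was -2.32, beside -0.04 over all genes tested.

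One library decided the call in that comparison. Without mouse 1 of DSS+ICB, the lowest of its group for the 4 globin genes, the 4 globin genes passed with log2 differences of -2.74 to -2.77 and adjusted p values of 0.0388 to 0.0446 in limma, while 598 of all genes passed in place of 19. Without mice 3 and 5 of DSS+ICB the log2 differences were -1.74 to -1.77 for the globin genes and -0.52 for Alas2, with adjusted p values of 0.262 to 0.422 in limma. The direction was the same with and without those libraries. With 0.1 added in place of 1, the Alas2 difference was -1.94, and with 10 it was -0.23. Both comparisons use the same 5 DSS+ICB libraries, so the higher and the lower values are not independent of each other.

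The third comparison sets DSS+ICB+Fp against DSS, where the means lay closer together and the intervals were wide. The log2 differences were -0.47 ± 0.69 for Hba-a1, -0.51 ± 0.66 for Hba-a2, -0.54 ± 0.66 for Hbb-bs, -0.52 ± 0.69 for Hbb-bt and 0.002 ± 0.37 for Alas2. Their 95% intervals reached from -2.0 to 1.01 for the globin genes and from -0.80 to 0.80 for Alas2 and include differences of either sign. In limma 0 of 5 passed at an adjusted p under 0.05 (0% of all genes did) and 0 of 5 were called at an unadjusted p under 0.05 (1.41% of all genes were). Groups did not overlap in 0 of 5, where 0.389% of all genes had such groups. The median log2 difference was -0.51, beside -0.01 over all genes.

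**Figure D2:**
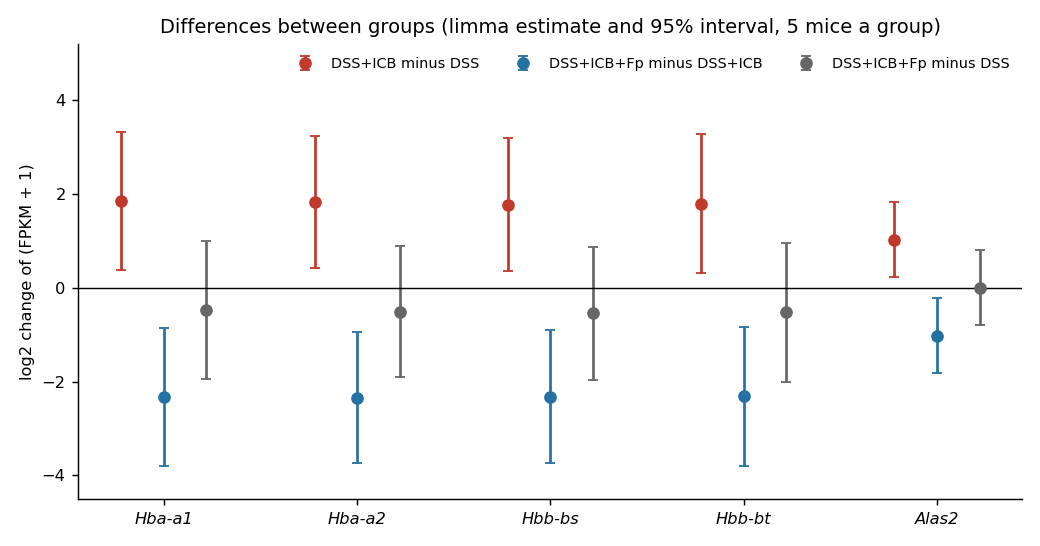
Differences between group means on the log2(FPKM + 1) scale for the 5 genes, by limma with 95% intervals, 5 mice per group. The 4 globin genes share nearly 1 estimate per comparison, 1.77 to 1.86 and -2.34 to -2.31, and Alas2 lies closer to 0 at 1.02 and -1.02. That place of Alas2 depends on the 1 added before the logarithm. With 0.1 added, Alas2 was at 1.97 in the first comparison, beside 1.80 to 1.89 for the globin genes. In the second it was at -1.94, beside -2.415 to -2.362.

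The ratio of alpha to beta transcripts varied less than their amount. The sum of the alpha genes was 12.6 to 587 FPKM over the 15 libraries, and that sum over the sum of the beta genes was 0.784 to 1.35, with means of 1.04 ± 0.205 in DSS, 1.07 ± 0.0577 in DSS+ICB and 1.06 ± 0.109 in DSS+ICB+Fp (SD, n = 5 each). The log2 ratio differed by 0.07 between DSS+ICB and DSS, by -0.02 between DSS+ICB+Fp and DSS+ICB and by 0.05 between DSS+ICB+Fp and DSS. Exact two-sided permutation tests gave p = 0.627, 0.825 and 0.778, and 0.825 for each after adjustment over 6 ratio tests, with 0.00794 as the smallest p that 5 against 5 allows. Hbb-bt over Hbb-bs was 0.335 to 0.483, and Hba-a2 over Hba-a1 0.90 to 1.21, each resting on how the authors' tools split shared reads.

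Alas2 was 1.60 to 6.49 FPKM per 1000 FPKM of globin. Its group means were 2.79 ± 1.03 in DSS, 3.93 ± 1.37 in DSS+ICB and 4.27 ± 1.73 in DSS+ICB+Fp (SD, n = 5 each). With 0.1 added to both, the log2 ratio of Alas2 to globin was higher by 0.13 in DSS+ICB than in DSS (exact permutation p = 0.611), by 0.45 in DSS+ICB+Fp than in DSS+ICB (exact p = 0.206) and by 0.58 in DSS+ICB+Fp than in DSS (exact p = 0.0714). After adjustment over the 6 tests these exact values were 0.825, 0.619 and 0.429. The ratio depends on the value added: with 1 added, the first difference was -0.81 and the second 1.35, so its direction between DSS+ICB and DSS changed with that choice. Only 5 libraries reached 1 FPKM of Alas2, so with 1 added the ratio mainly follows the globin level.

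The 5 genes varied together from mouse to mouse. Over the 15 libraries, Pearson's r of log2(FPKM + 1) was 0.991 to 0.998 between the globin genes and 0.925 to 0.934 between Alas2 and each globin gene, and Spearman's rho was 0.932 to 0.996 over all 10 pairs. The permutation p was 1e-05 for each pair, also after adjustment over the 10 pairs, which is the smallest that 100000 permutations can give. With each group's mean subtracted, r was 0.884 to 0.997, and without mice 4 and 5 of DSS+ICB, the libraries farthest from the median, it was 0.893 to 0.997. Without mice 3 and 5 of DSS+ICB it was 0.913 to 0.997. Within DSS r of Hbb-bs with Alas2 was 0.935 over 5 mice of 1 treatment. Reads can be shared within the alpha pair and within the beta pair, while the alpha genes, the beta genes and Alas2 lie on separate chromosomes.

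**Figure D3:**
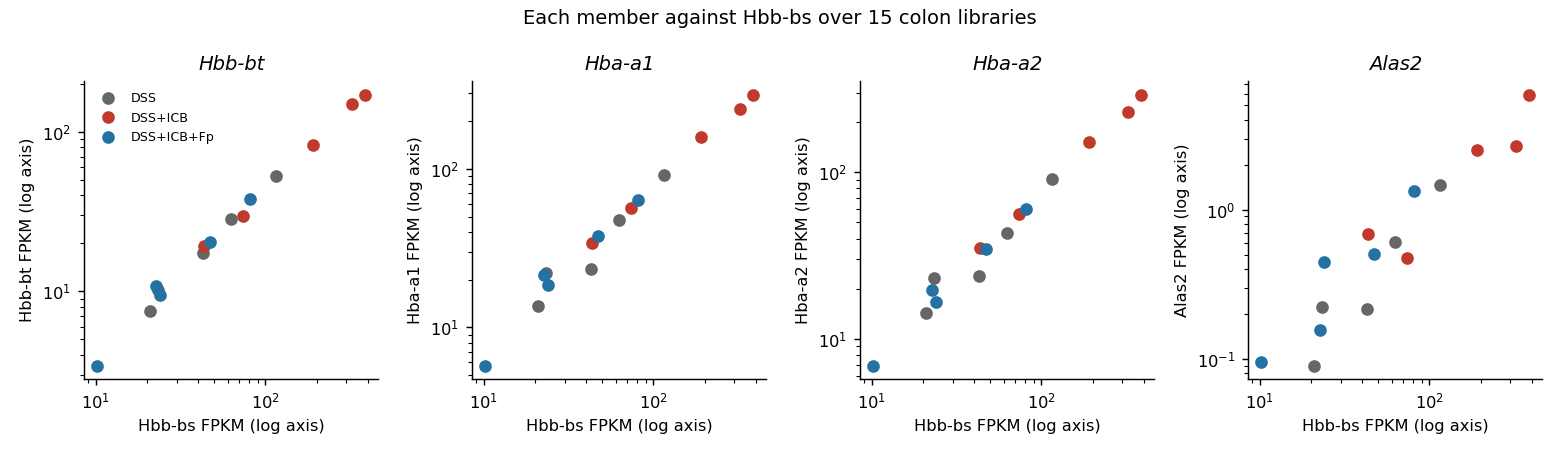
FPKM of Hbb-bt, Hba-a1, Hba-a2 and Alas2 against that of Hbb-bs on log axes; each point is 1 of 15 colon libraries, coloured by group. The globin genes fall on a line with Hbb-bs (r = 0.991 to 0.998) that runs through all 3 groups, and Alas2 follows with more scatter (r = 0.930).

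Most other red cell transcripts were close to 0. Of 30 further erythroid markers 29 were found, 19 of them stayed under 1 FPKM in every library, and 7 passed the filter. Slc4a1, the anion exchanger of the red cell membrane, was at 0 in 8 libraries and at most 0.102 FPKM. Its highest values, 0.102 and 0.0619 FPKM, were in mice 5 and 4 of DSS+ICB, which were also the highest in Hbb-bs. The erythroid transcription factors Klf1 and Gata1 were at most 0.627 and 0.0667 FPKM. Gata1 was at 0 in 10 libraries. Of the defining markers, Kel and Trim58, named after their values were seen, were at 0 in all 15 libraries.

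The 7 erythroid markers that passed the filter are genes that many tissues express. None passed in any comparison by limma. At an unadjusted p under 0.05 there were 0, 1 and 0 in the 3 comparisons (11.3%, 21.8% and 1.41% of all genes were called). Their median log2 differences were 0.06 between DSS+ICB and DSS and -0.08 between DSS+ICB+Fp and DSS+ICB (0.12 and -0.04 without mice 3 and 5 of DSS+ICB). Bnip3l, which clears mitochondria from maturing red cells and acts in other cells too, had 26.8 ± 1.26, 23.4 ± 3.67 and 26.7 ± 4.07 FPKM in the 3 groups. Bpgm, which makes the bisphosphoglycerate that regulates oxygen release, had 14.3 ± 1.91, 15.4 ± 4.43 and 14.2 ± 2.87 FPKM (SD, n = 5 each). The summed level of all 29 was 61.1 to 69.6 FPKM in DSS, 58.6 to 80.0 in DSS+ICB and 63.6 to 68.3 in DSS+ICB+Fp. Over the 15 libraries the mean log2 level of the 7 tested genes had r = -0.086 and rho = -0.011 with Hbb-bs (permutation p 0.761 and 0.975, unchanged by adjustment over 6 lists).

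The embryonic and theta globin genes were at or close to 0. Of 6 found, 5 were listed at 0 in every library, and Hbq1b, named after its values were seen, reached at most 0.106 FPKM. Cygb, the cytoglobin of fibroblasts, had 9.88 ± 4.19, 17.9 ± 9.71 and 8.27 ± 2.95 FPKM in DSS, DSS+ICB and DSS+ICB+Fp. Its log2 differences were 0.74 ± 0.35 and -0.95 ± 0.35 for the 2 successive additions, with adjusted p values of 0.443 and 0.148 in limma, and they were 0.29 and -0.50 without mice 3 and 5 of DSS+ICB. Ngb, neuroglobin, had 2.97 ± 1.23, 2.56 ± 2.36 and 3.75 ± 2.28 FPKM (SD, n = 5 each).

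None of the other genes of haem synthesis passed. Of 12 tested, 0 passed in each comparison by limma. At an unadjusted p under 0.05 there was 1 lower in DSS+ICB than in DSS and 1 higher in DSS+ICB+Fp than in DSS+ICB. Of all genes, 11.3% and 21.8% were called so in these comparisons. The medians of the list were -0.08 and 0.19, and 0.16 and 0.01 without mice 3 and 5 of DSS+ICB, so the sign of the first turned. Alas1, the general form of the enzyme and outside the naming rule, had 10.4 ± 1.74, 9.39 ± 3.47 and 10.8 ± 0.801 FPKM in the 3 groups. Its log2 differences were -0.19 ± 0.19 and 0.24 ± 0.19, with adjusted p values of 0.695 and 0.486 in limma, and they were -0.05 and 0.11 without those 2 mice. Tmem14c, a mitochondrial porphyrinogen transporter, had 74.0 ± 4.28, 74.6 ± 21.6 and 80.9 ± 14.6 FPKM. Slc25a39, a mitochondrial glutathione carrier, had 20.5 ± 4.21, 20.3 ± 5.49 and 23.5 ± 3.64 FPKM, and Alad, the second enzyme of the pathway, 12.4 ± 2.37, 14.5 ± 4.80 and 14.4 ± 4.09 FPKM (SD, n = 5 each).

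Among the 10 tested genes that clear haem and haemoglobin, Hmox1 and Hp had DSS+ICB values that overlapped neither other group. Of all genes, 1.54% did not overlap between DSS+ICB and DSS, and 3.41% between DSS+ICB+Fp and DSS+ICB. Hmox1 encodes haem oxygenase, which breaks haem down. It had 7.0, 7.08, 7.10, 4.66 and 6.2 FPKM in DSS mice 1 to 5, 7.79, 8.91, 20.9, 8.48 and 27.3 FPKM in DSS+ICB and 4.27, 2.51, 4.89, 6.37 and 2.64 FPKM in DSS+ICB+Fp. Every DSS+ICB mouse was above every mouse of both other groups. The log2 differences were 0.92 ± 0.32 (adjusted p = 0.418 in limma) and -1.49 ± 0.32 (adjusted p = 0.0706 in limma).

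Hp encodes haptoglobin, which binds free haemoglobin and is also a product of neutrophil granules. It had 2.77, 0.794, 1.28, 4.02 and 1.01 FPKM in DSS mice 1 to 5, 9.22, 5.71, 30.7, 6.96 and 38.4 FPKM in DSS+ICB and 0.273, 3.10, 0.510, 3.43 and 1.04 FPKM in DSS+ICB+Fp. Again every DSS+ICB mouse was above all others. The log2 differences were 2.42 ± 0.52 (adjusted p = 0.247 in limma) and -2.64 ± 0.52 (adjusted p = 0.0559 in limma). Without mouse 1, 2 or 4 of DSS+ICB, or without mouse 4 of DSS+ICB+Fp, Hmox1 and Hp each passed in the second comparison, with adjusted p values of 0.0252 to 0.0459 in limma. Without mice 3 and 5 of DSS+ICB the log2 differences were 0.35 and -0.93 for Hmox1 and 1.58 and -1.80 for Hp. The highest Hmox1 and Hp were in mice 5 and 3, while mouse 4, next to mouse 5 in Hbb-bs, was near the low end of its group in both. The summed level of 14 neutrophil markers, 338 to 2149 FPKM in DSS+ICB, was also above both other groups in every DSS+ICB mouse, and the part of neutrophils in the Hp values was not tested.

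Of the 10 tested genes of clearance, 0 passed in each comparison by limma, and the medians were 0.14 and -0.18 (0.05 and -0.17 without mice 3 and 5 of DSS+ICB). At an unadjusted p under 0.05, 2 were higher in DSS+ICB than in DSS, 1 was higher and 3 lower in DSS+ICB+Fp than in DSS+ICB, and 0 differed in the third comparison. Of all genes, 11.3%, 21.8% and 1.41% were called so in the 3 comparisons. Hmox2, the constitutive haem oxygenase, had 13.9 ± 1.04 FPKM in DSS+ICB+Fp and 16.7 ± 2.74 FPKM in DSS+ICB. Slc48a1, a haem transporter of lysosomes, had 13.9 ± 1.80 and 15.1 ± 4.22 FPKM, and Lrp1, the receptor for haem bound to haemopexin, 10.5 ± 1.98 and 12.3 ± 4.09 FPKM (SD, n = 5 each). Of 15 tested genes of iron uptake, storage and export, 0 passed in each comparison by limma, with medians of -0.31 and 0.22. At an unadjusted p under 0.05, 3 were higher and 2 lower in the first comparison, 4 higher and 1 lower in the second and 0 in the third, beside the same shares of all genes. The medians were 0.01 and 0.08 without mice 3 and 5 of DSS+ICB. Fth1, the ferritin heavy chain, had 178 ± 48.6, 277 ± 106 and 206 ± 35.5 FPKM in the 3 groups, with log2 differences of 0.61 ± 0.25 and -0.37 ± 0.25 (adjusted p = 0.430 and 0.389 in limma). The Fth1 differences were 0.31 and -0.07 without mice 3 and 5 of DSS+ICB, and 0.41 to 0.73 and -0.49 to -0.17 with 1 library left out. Ftl1, the ferritin light chain, and Tfrc, the transferrin receptor, had 398 ± 54.2 and 34.3 ± 6.99 FPKM in DSS+ICB+Fp and 365 ± 64.0 and 33.9 ± 16.4 FPKM in DSS+ICB.

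**Figure D4:**
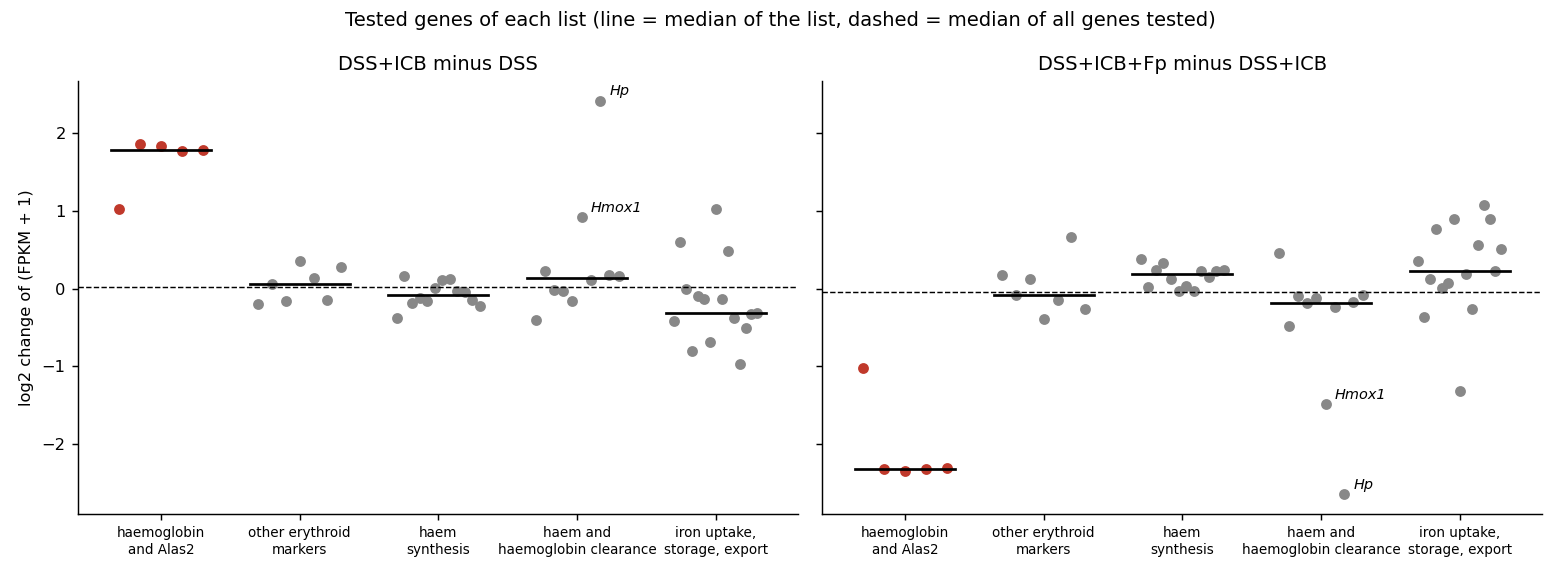
Log2 differences of (FPKM + 1) for the tested genes of 5 lists, by limma: the 5 haemoglobin and Alas2 genes, 7 other erythroid markers, 12 genes of haem synthesis, 10 of haem and haemoglobin clearance and 15 of iron handling; black lines are list medians and the dashed line the median of all genes. The haemoglobin and Alas2 genes have medians of 1.79 and -2.32, the other lists have medians between -0.31 and 0.22, and Hp and Hmox1 are labelled in the clearance list.

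Markers of other cells were set beside Hbb-bs, since they moved in the same libraries. Over the 15 libraries, the mean log2 level of 15 endothelial genes had r = 0.804 and rho = 0.893 with Hbb-bs (permutation p 0.00035 and 5.0e-05, adjusted over 6 lists 0.00105 and 0.0003). It was 0.623 with group means subtracted, 0.812 without mice 4 and 5 of DSS+ICB and 0.667 without mice 3 and 5. The summed endothelial level was 37.0 to 90.0 FPKM in DSS, 71.4 to 174 in DSS+ICB and 41.3 to 73.7 in DSS+ICB+Fp. Plvap, a protein of the diaphragms of capillary pores, had 14.2 ± 5.25, 33.2 ± 11.4 and 16.3 ± 3.61 FPKM, with log2 differences of 1.18 ± 0.27 and -0.94 ± 0.27 (adjusted p = 0.28 and 0.0943 in limma). Of the 15 endothelial genes, 0 passed in each comparison by limma. At an unadjusted p under 0.05, 11 were higher in the first, 13 lower in the second and 0 in the third (11.3%, 21.8% and 1.41% of all genes were called). Without mice 3 and 5 of DSS+ICB, 3 were higher in the first and 5 lower in the second, and the log2 differences of Plvap were 0.90 and -0.66. The part of vessel content in the haemoglobin values was not tested.

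Platelets travel in blood as red cells do. Of 14 platelet markers 3 passed the filter, and their mean level had r = 0.838 and rho = 0.807 with Hbb-bs (permutation p 9.0e-05 and 0.00047, adjusted 0.00054 and 0.00141). It was 0.827 with group means subtracted, 0.705 without mice 4 and 5 and 0.738 without mice 3 and 5 of DSS+ICB. Pf4, a chemokine of platelets and of some macrophages, had 17.1 ± 4.55, 20.7 ± 9.68 and 15.9 ± 4.84 FPKM, with log2 differences of 0.14 ± 0.33 and -0.28 ± 0.33 (adjusted p = 0.869 and 0.653 in limma). Those of Pf4 were 0.31 and -0.44 without mice 3 and 5 of DSS+ICB. The other 11 platelet markers did not pass the filter, and Gp9 and Tubb1, named after their values were seen, were at 0 in 14 libraries each. The summed level of the 14 was 18.2 to 30.7 FPKM in DSS, 19.9 to 44.5 in DSS+ICB and 13.7 to 31.7 in DSS+ICB+Fp. The part of platelet or macrophage RNA in this relation was not tested.

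The summed level of the neutrophil genes was higher in all 5 DSS+ICB mice than in the other 10, which was not so for the haemoglobin genes. It was 120 to 251 FPKM in DSS and 112 to 222 FPKM in DSS+ICB+Fp, below the 338 FPKM of the lowest DSS+ICB mouse. Ly6g made up most of the sums in those 2 groups, at 97.3 to 207 FPKM in DSS and 109 to 187 FPKM in DSS+ICB+Fp. It differed from other genes of the list: its lowest value, 87.2 FPKM, was in mouse 3 of DSS+ICB. That mouse had the highest S100a8 and S100a9, 593 and 1228 FPKM. Of the 10 neutrophil genes tested, 5 passed as lower in DSS+ICB+Fp than in DSS+ICB in limma (0.132% of all genes did), also without mice 3 and 5 of DSS+ICB. Between DSS+ICB and DSS 0 passed, and 9 had an unadjusted p under 0.05 (11.3% of all genes did). Their r with Hbb-bs was 0.646 (rho 0.468, permutation p 0.00954 and 0.0806, adjusted 0.0191 and 0.121) and 0.124 with group means subtracted. It was 0.517 without mice 4 and 5 and 0.348 without mice 3 and 5 of DSS+ICB. Within groups of 5 mice r was -0.412 in DSS, 0.405 in DSS+ICB and -0.381 in DSS+ICB+Fp, so its sign differed between groups.

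The wall and the lining of the colon were also compared. For 10 smooth muscle genes r with Hbb-bs was 0.516 (rho 0.546, permutation p 0.0486 and 0.0383, adjusted 0.0729 and 0.0765), and for 11 genes of absorptive colonocytes it was -0.484 (rho -0.393, permutation p 0.0658 and 0.148, adjusted 0.0790 and 0.178). Neither passed after adjustment. With group means subtracted r was 0.596 for smooth muscle and -0.104 for colonocytes, and without mice 3 and 5 of DSS+ICB it was 0.388 and -0.174. Mouse 3 of DSS+ICB had both the highest smooth muscle sum, 15471 FPKM, and the lowest colonocyte sum, 277 FPKM. Summed colonocyte levels were 1924 to 3460 FPKM in DSS and 2506 to 3933 FPKM in DSS+ICB+Fp. The part of tissue makeup in the haemoglobin values was not tested.

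**Figure D5:**
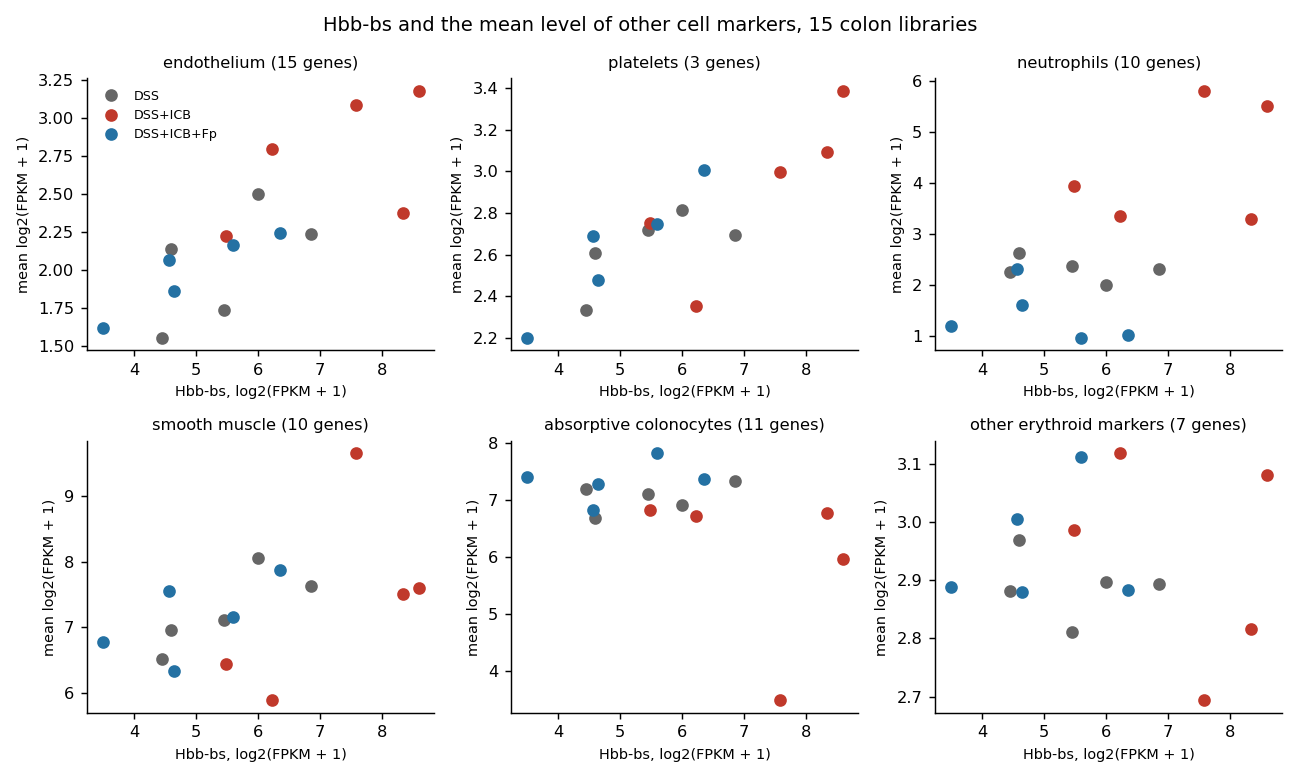
Hbb-bs against the mean level of the tested genes of 6 marker lists, both as log2(FPKM + 1), over 15 colon libraries coloured by group. Endothelial and platelet levels go up with Hbb-bs (r = 0.804 and 0.838), neutrophil levels are highest in DSS+ICB, and the other erythroid markers show no slope (r = -0.086).

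The genes most like Hbb-bs over the 15 libraries were the other 4 of the set. Among 14384 other genes tested, ranked by Pearson's r of log2(FPKM + 1), Hbb-bt, Hba-a2, Hba-a1 and Alas2 took ranks 1 to 4, while the median r of all was -0.011. Only 2 further genes had an r of at least 0.9. Mgll, the lipase that cleaves monoglycerides, had r = 0.915, and 0.910 with group means subtracted, with 2.62 ± 1.20, 6.76 ± 4.08 and 3.01 ± 2.11 FPKM in DSS, DSS+ICB and DSS+ICB+Fp. Cpxm1, a secreted carboxypeptidase-like protein, had r = 0.90 and 0.805, with 2.99 ± 1.47, 7.61 ± 4.13 and 1.79 ± 0.833 FPKM (SD, n = 5 each). With group means subtracted Mgll took rank 4, ahead of Alas2.

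The next 8 genes had r from 0.868 to 0.832: Tspan6, Tek, Galnt18, BC028528, Ctsk, Tmem45a, Tmsb4x and Zfp560. Tek is the endothelial receptor for angiopoietins, Ctsk is the protease cathepsin K, and Tmsb4x encodes the actin-binding thymosin beta 4. Tek had 3.67 ± 0.908, 5.05 ± 1.34 and 2.98 ± 0.836 FPKM in the 3 groups, with r = 0.861, and 0.752 with group means subtracted. Tmsb4x, the most abundant of the 8, had 334 ± 66.6, 548 ± 176 and 293 ± 59.6 FPKM (SD, n = 5 each). These genes were chosen for their likeness, so their levels are a description.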

How the data were processed

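Total RNA of mouse colon was sequenced, 1 library for each of 15 mice. The deposited files give FPKM per Ensembl gene; the submitters' processing notes name FastQC, STAR 2.5, Cuffnorm, DESeq and the build mm10, and any further scaling by the authors is not given in the sources used here. The submitters' notes do not say how reads shared between copies were assigned. Symbols came from GENCODE M21 (55154 of 55335 genes). Values were tested as log2(FPKM + 1) in limma 3.58.1 (R 4.3.3) with trend and robust, over 14385 genes with at least 1 FPKM in at least 5 libraries, in 1 fit of all 15 libraries. Benjamini-Hochberg adjustment ran over all tested genes in each of 3 comparisons, and the code was tested on simulated data. Whole reads could not be recovered from the FPKM: 15.3% to 18.8% of low values lay near the steps of the best depth, against 5.39% to 5.73% at other depths, so depths are estimates and no count test was run. Ratios used exact permutation tests and correlations 100000 permutations, two-sided. The members, the 10 other gene lists and the tests were chosen with earlier results of these data known. Named genes were the members, Hmox1, Hp, Slc4a1, Klf1, Gata1 and Pf4, the 3 most abundant tested genes of a list and the 10 most like Hbb-bs. Some genes of that rule are not reported here, and the lists of other cell types are given mainly by sums and counts. Alternatives were other scalings, pseudocounts, filters, weights and fits, and leaving out libraries. Ahsp, Hbb-b1 and Hbb-b2 found no match by symbol and are not analysed here. Promoters came from RefSeq (GRCm38.p6), and gene positions from GENCODE M21 (GRCm38); their starts can differ.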

Additional observations from a re-analysis of the deposited data

Results flagged for a closer look

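The ratio of Hba-a2 to Hba-a1 in mouse 1 of DSS+ICB+Fp was 1.21, far from the 0.90 to 0.951 of the other 4 mice of its group, with a gap of 0.834 of the group's range against a critical value of 0.71 for 5 samples. This library had the lowest globin levels of all, with 5.73 FPKM of Hba-a1 and 6.91 FPKM of Hba-a2, and the ratio rests on how shared reads were split. It was the only 1 of 54 groups of values tested that was set apart, and chance sets apart about 1 in 20.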

How the results depend on the processing

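Each comparison was repeated under 25 alternatives. Of the 5 genes, 0 passed under any of them for DSS+ICB against DSS and for DSS+ICB+Fp against DSS. For DSS+ICB+Fp against DSS+ICB, leaving out 1 library gave 0 to 4 passing genes, 4 only without mouse 1 of DSS+ICB, and every other alternative gave 0. The log2 differences of the 5 genes kept their direction in both comparisons with DSS+ICB. Between DSS+ICB+Fp and DSS the near-zero Alas2 difference was -0.01181 with upper-quartile scaling, -0.001176 with a pseudocount of 10, and -0.1697 to 0.193 when 1 library was left out. The number of all genes passing was 3 for DSS+ICB against DSS and 0 to 7 over the alternatives, and 19 for DSS+ICB+Fp against DSS+ICB and 0 to 964, with 964 under sample quality weights, 598, 153 and 75 without mouse 1, 2 or 4 of DSS+ICB, 449 without mouse 4 of DSS+ICB+Fp and 0 in a fit of those 2 groups alone; it stayed at 0 for DSS+ICB+Fp against DSS. The cause was not tested. Under sample quality weights Hmox1, Hp and Slc11a1 passed as lower in DSS+ICB+Fp than in DSS+ICB, with adjusted p values of 0.0282, 0.0282 and 0.0465 in limma.

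With 1 library left out, the log2 alpha to beta ratio differed by -0.03057 to 0.1642 between DSS+ICB and DSS, by -0.07085 to 0.0313 between DSS+ICB+Fp and DSS+ICB (0.003492 without mice 3 and 5 of DSS+ICB) and by -0.04735 to 0.1474 between DSS+ICB+Fp and DSS. The log2 Alas2 to globin ratio differed by -0.012 to 0.2772 between DSS+ICB and DSS, by -0.8128 with a pseudocount of 1 and by -0.04821 without mice 3 and 5. Between DSS+ICB+Fp and DSS+ICB it was 1.352 with a pseudocount of 1 (exact permutation p = 0.0238, not adjusted). Alas2 was 0.0959 to 1.34 FPKM in DSS+ICB+Fp, so with 1 added this ratio mainly follows the globin level. Between DSS+ICB+Fp and DSS the log2 Alas2 to globin ratio differed by 0.4471 to 0.7485 with 1 library left out, the latter without mouse 4 of DSS+ICB+Fp (exact permutation p = 0.0317, not adjusted). The Pf4 difference between DSS+ICB and DSS was -0.02207 to 0.4344 with 1 library left out. Leaving out mice 3 and 5 of DSS+ICB from ratios, correlations and lists was chosen after seeing the data. Depth limits Alas2 most, with about 3 fragments in its lowest library. No paired analysis was possible because the labels give no replicate numbers.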

Other observations

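Slc40a1 and Slc11a1 are described here because of their values, which were seen before they were chosen. Slc40a1, the iron exporter ferroportin of macrophages and gut epithelium, had 15.4, 21.5, 16.1, 24.7 and 25.4 FPKM in DSS mice 1 to 5. It had 20.5, 16.4, 2.41, 13.8 and 6.76 FPKM in DSS+ICB and 30.4, 22.6, 20.7, 11 and 31.1 FPKM in DSS+ICB+Fp. The lowest values were in mice 3 and 5 of DSS+ICB, which were the highest in Hmox1. These mice also had the lowest mean log2(FPKM + 1) of the absorptive colonocyte genes, 3.48 and 5.95, against at least 6.67 in every other library. The part of tissue makeup in the Slc40a1 values was not tested. The log2 differences of Slc40a1 were -0.97 ± 0.42 between DSS+ICB and DSS and 1.08 ± 0.42 between DSS+ICB+Fp and DSS+ICB, with adjusted p values of 0.434 and 0.165 in limma. Without mice 3 and 5 of DSS+ICB they were -0.26 and 0.37.

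Slc11a1, which pumps iron and manganese out of phagosomes, had 5.68 ± 4.31 FPKM in DSS+ICB, 1.79 ± 0.389 in DSS and 1.29 ± 0.396 in DSS+ICB+Fp (SD, n = 5 each). Every DSS+ICB mouse was above every DSS+ICB+Fp mouse, where 3.41% of all genes had groups that did not overlap. The log2 difference was -1.32 ± 0.33, with an adjusted p of 0.0844 in limma, and 0.0419 without mouse 1 of DSS+ICB. The difference was -0.64, with an adjusted p of 0.176 in limma, without mice 3 and 5 of DSS+ICB. The highest values, 10.7 and 10.1 FPKM, were in mice 3 and 5 of DSS+ICB, and mouse 4, with 325 FPKM of Hbb-bs, had 2.18 FPKM.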
